A study of Mus musculus with 3 samples.

Results

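The genes that let calcium into cells, store it and pump it out were followed through the nuclei of the mouse dorsal root ganglion (DRG), where the cell bodies of sensory neurons lie. The members were every gene of the deposited table whose symbol names a pore, alpha2delta, beta or gamma subunit of the voltage-gated calcium channels, a ryanodine or IP3 receptor, a Stim or Orai protein, a calcium ATPase of the Atp2a, Atp2b or Atp2c families, or a sodium-calcium exchanger of the Slc8a family. The rule found 49 genes of 32227, and it used symbols only, with no measured value. In the classified nuclei, 40 of the 49 had 100 or more transcripts in each library, and the other 9 had fewer in at least 1 library. The genes ran from 5.34 to 817 kb in length, and 25 of them overlapped another gene of the table on the opposite strand. Whether the counting used strand is not given in the sources used here, so reads of such pairs cannot be told apart.

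The study compared lumbar ganglia (L3 to L5) of adult and aged wild-type C57BL/6 mice, the strain that all groups share, and the labels name no treatment. Frozen ganglia gave 1 adult library (labelled 3 months) and 2 aged libraries (labelled 21 months), made with PIP-seq, which tags each transcript of a nucleus with a molecular identifier (UMI). The text that describes the series gives 12 months for the aged mice, and the sample labels were used. How many mice went into a library is not given in the labels. Only the aged group has more than 1 library, so the spread within an age is seen there alone.

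All 3 libraries are labelled male, while the methods of the study give the aged mice as female and the adult mice as of both sexes. Xist, which is transcribed from an inactive X chromosome, stood at 761 to 2302 counts per 1000000 UMIs (CPM) in neuron-like and SGC-like sums of every library, and the Y-linked genes Uty, Kdm5d, Ddx3y and Eif2s3y stood between 0 and 15.7 CPM. The Xist level goes against the male label in each library, the adult one included. In neuron-like sums Xist (1227, 761 and 875 CPM), Uty (3.15, 0.97 and 0.94 CPM) and Ddx3y (15.7, 8.10 and 5.86 CPM) were all highest in the adult library. The sex make-up of the libraries is thus not known, and its part in the age values was not tested. The libraries held 167664164, 95647106 and 69045987 UMIs and shared at most 1 barcode with each other. Barcodes with more than 1000 genes numbered 11518, 5130 and 2611. Nuclei were given a class by their marker genes, none of which is a member, and each level below is the sum of a gene's UMIs over the nuclei of a class in 1 library, as CPM of all UMIs of that class. Barcodes whose transcripts were better explained by a mix of 2 classes were set aside (24.9% of nuclei), and no separate doublet caller was run.

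The markers were in accord with the names of most classes. All markers of the MSC-like (myelinating Schwann), myeloid-like, B cell-like, T cell-like, mural-like, endothelial-like and fibroblast-like classes were highest in their own class, as were 9 of 10 for neuron-like nuclei. For SGC-like nuclei (satellite glia, which wrap the neuron cell bodies) 4 of 7 were, namely Fabp7, Kcnj10, Ednrb and Fbln5. The rest were higher in another class, Glul at 193 against 417 CPM, Slc7a2 at 486 against 1067 CPM and Ntsr2 at 0.40 against 7.31 CPM. For the NMSC-like class (non-myelinating Schwann) 5 of 6 markers were highest in their own class. That class is doubtful, since 541 of its 583 nuclei fell into mixed clusters when nuclei were clustered instead. Mural-like and T cell-like nuclei were too few in a library to test. The 9 neuronal genes kept out of the class markers, such as Scn10a, summed to 3386 to 3637 CPM in neuron-like nuclei. They also summed to 589 to 723 CPM in SGC-like and 423 to 783 CPM in fibroblast-like nuclei, and to 4181 to 5215 CPM in the RNA free of nuclei, so low levels of a neuronal gene in another class cannot be told apart from free RNA. Singly they differed, with a mean ratio of SGC-like to neuron-like level from 0.057 for Scn10a to 0.62 for Syp.

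Voltage-gated calcium channels open when the membrane is depolarized. Their pore subunit fixes the kind of current (L-type, P/Q-type, N-type, R-type or T-type), beta subunits bring the pore to the membrane, and alpha2delta subunits promote its surface level. Inside the cell, calcium leaves the endoplasmic reticulum through ryanodine and IP3 receptors, SERCA pumps refill that store, and Stim sensors open Orai channels when it runs low. PMCA pumps and sodium-calcium exchangers carry calcium out across the plasma membrane. In sensory neurons these proteins shape firing and transmitter release in the spinal cord.

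Most channel genes were higher in neuron-like nuclei than in the rest of the ganglion, and IP3 receptor genes were lower there. Each class was compared with the mean of the other classes by edgeR's quasi-likelihood test over the 3 libraries, and 37 of the 49 members passed the filter on low counts. In neuron-like nuclei 27 of the 37 were higher (34.0% of all 13259 genes tested were) and 6 were lower (24.7% of all genes). The median log2 fold change of the 37 was 1.91, beside 0.07 over all genes. By role, 7 of 8 pore subunits tested, 3 of 3 alpha2delta subunits, 4 of 4 beta subunits, 2 of 3 ryanodine receptors, 4 of 4 PMCA pumps and 2 of 2 exchangers were higher in neuron-like nuclei, while 3 of 3 IP3 receptors were lower. A member called higher lay above the mean of the other classes and was not always highest in neuron-like nuclei. Of the tested classes, Slc8a1 was highest by its mean in myeloid-like nuclei (1852 CPM, against 110 CPM in neuron-like nuclei). Atp2b1 was highest in B cell-like and Atp2b4 in fibroblast-like nuclei. The 6 lower members were the 3 IP3 receptors, Stim2, Orai1 and Atp2a3. Members that passed the filter only because 1 class was high had to differ, so these counts are a description.

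Among the pores, Cacna1b, which carries the N-type current of presynaptic terminals, was the most neuronal. Its level in neuron-like nuclei was 405 CPM in the adult library and 451 and 525 CPM in the aged libraries, and in SGC-like nuclei it was 20.9, 21.0 and 23.3 CPM. The log2 fold change against the other classes was 4.70 ± 0.15 (SE, adjusted p = 1.09e-19). Cacna1a, the P/Q-type pore, had 765, 600 and 660 CPM in neuron-like nuclei, 133, 413 and 438 CPM in myeloid-like nuclei and 283, 219 and 215 CPM in MSC-like nuclei. It was above the mean of the other classes in all 3 of these, by 2.57 ± 0.17 on the log2 scale in neuron-like nuclei (adjusted p = 4.55e-13). Cacna1c, an L-type pore (chr6:118587240-119196418, minus strand, GRCm38), stood at 1240, 1267 and 1548 CPM in neuron-like and 761, 640 and 604 CPM in fibroblast-like nuclei. Per kb of gene, the neuron-like levels of Cacna1b, Cacna1a and Cacna1c were 2.89 ± 0.38, 2.68 ± 0.33 and 2.22 ± 0.28 CPM (SD, n = 3). Within each library Cacna1a and Cacna1b both lay above Cacna1c, though the values of Cacna1a overlapped those of both others across libraries. Without the division by length the order of the means was the reverse (1352 CPM for Cacna1c, 675 for Cacna1a and 460 for Cacna1b). Whether UMIs scale with gene length was not tested, so levels per kb do not settle which pore is transcribed most. The levels per kb of Cacna1h, Cacna1d and Cacna1e were 0.845 ± 0.267, 0.296 ± 0.022 and 0.150 ± 0.032 CPM.

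Several pores had their highest level outside neurons. Cacna1e, the R-type pore, had 554, 2060 and 1465 CPM in B cell-like nuclei, 150, 141 and 115 CPM in endothelial-like nuclei and 57.2, 77.4 and 88.3 CPM in neuron-like nuclei. Every library was higher in B cell-like than in endothelial-like nuclei, and the log2 fold change in B cell-like nuclei was 5.64 ± 0.23 (adjusted p = 9.24e-17). The T-type pore Cacna1i was also highest there, at 56.8, 151 and 135 CPM (5.47 ± 0.47, adjusted p = 3.9e-10). The next tested class for Cacna1i, neuron-like nuclei, had a mean of 13.8 CPM. Whether it would have passed the filter without its B cell-like sums was not tested, so its p-value is a description. B cell-like nuclei numbered 72, 60 and 21, and the neuronal check genes in them fell from 1101 CPM in the adult library to 761 and 482 CPM in the aged ones. Cacna1d, another L-type pore, was highest in myeloid-like nuclei (233, 546 and 527 CPM), with a log2 fold change of 3.05 ± 0.23 (adjusted p = 1.71e-11). Cacna1g, a T-type pore, was a fibroblast-like gene at 62.4, 38.2 and 48.9 CPM, against 1.48, 1.01 and 1.10 CPM in neuron-like nuclei (5.74 ± 0.37, adjusted p = 1.61e-12). The next tested class, endothelial-like nuclei, had a mean of 2.83 CPM. Cacna1g thus passed the filter through its fibroblast-like sums and had to differ there, so its p-value is a description. Cacna1h, the T-type pore best known from pain-sensing neurons, was at 39.0, 43.3 and 68.4 CPM in neuron-like nuclei (2.93 ± 0.20, adjusted p = 8.12e-13). Cacna1s and Cacna1f, known from muscle and retina, had at most 51 and 23 UMIs in a library over all classes, and the gamma subunits Cacng1 and Cacng6 at most 16 and 27.

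**Figure D1:**
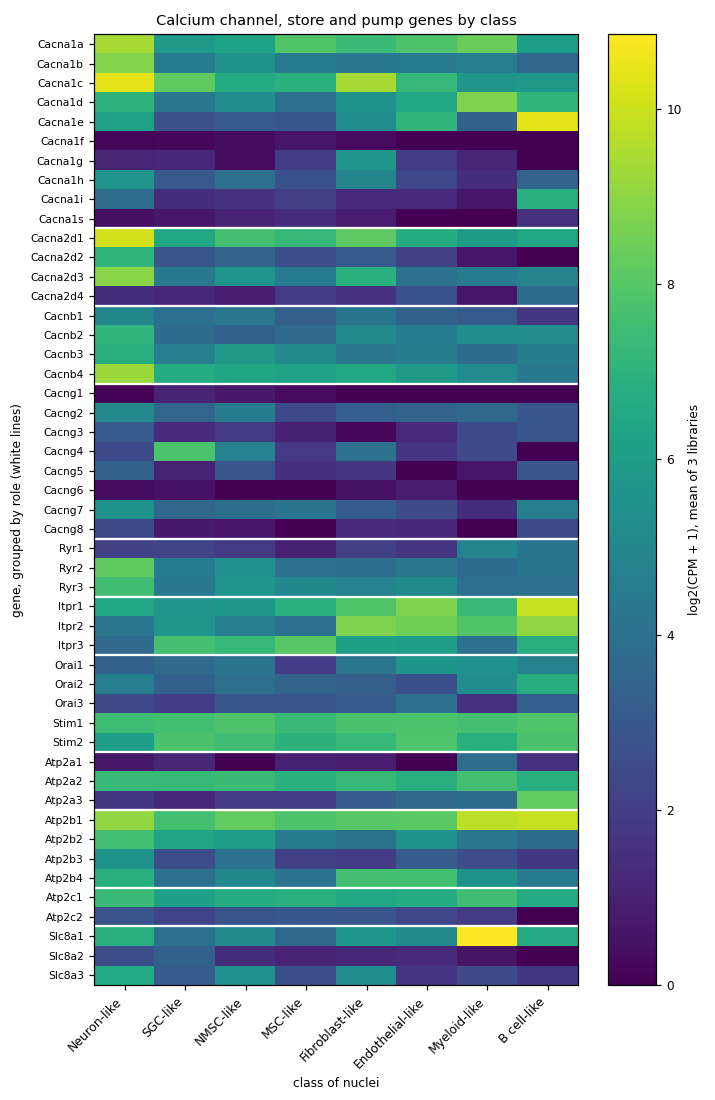
Mean level of each of the 49 genes in each tested class of nuclei, as log2(CPM + 1) over 3 libraries, with genes in rows grouped by role between white lines and classes in columns. The upper rows are brightest in the neuron-like column, and Cacna1e in B cell-like, Slc8a1 in myeloid-like and Cacng4 in SGC-like nuclei stand out from their own rows.

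The alpha2delta and beta subunits that could be tested were higher in neuron-like nuclei, while the gamma subunits were mixed. Cacna2d1, a subunit that binds gabapentin, had 977, 1135 and 1214 CPM in neuron-like and 206, 292 and 354 CPM in fibroblast-like nuclei, Cacna2d3 had 477, 516 and 476 CPM in neuron-like nuclei, and Cacna2d2 had 125, 119 and 164 CPM. The log2 fold changes of the 3 in neuron-like nuclei were 3.51 ± 0.15, 4.32 ± 0.14 and 6.16 ± 0.23 (adjusted p = 5.02e-17, 1.04e-19 and 1.77e-17). For Cacna2d2 the next tested class, NMSC-like nuclei, had a mean of 9.92 CPM. Whether it would have passed the filter without its neuron-like sums was not tested, so its p-value is a description. Among the beta subunits, Cacnb4 was at 605, 579 and 615 CPM in neuron-like nuclei, Cacnb3 at 109, 115 and 109 CPM, Cacnb2 at 102, 146 and 169 CPM and Cacnb1 at 25.8, 31.8 and 35.0 CPM. Cacng2, Cacng3, Cacng5 and Cacng7 belong to the branch of gamma subunits that escort AMPA receptors (TARPs) or resemble them, and Cacng2 and Cacng7 were higher in neuron-like nuclei (log2 fold changes 2.14 ± 0.22 and 2.64 ± 0.20). Cacng4, a TARP (chr11:107732357-107794557, minus strand, GRCm38), was instead a gene of SGC-like nuclei. It had 247, 187 and 221 CPM there and 5.89, 3.75 and 3.62 CPM in neuron-like nuclei, so every SGC-like sum lay above every sum of the other tested classes, of which NMSC-like nuclei came next with 38.3, 25.1 and 14.6 CPM. Its log2 fold change in SGC-like nuclei was 6.54 ± 0.23 (adjusted p = 1.55e-17), the largest of any member there. Cacng4 overlaps the transcript Gm11650 on the opposite strand. Of the 8 tested classes, Cacna2d4 and Cacng8 were highest by their means in B cell-like nuclei, at 13.5 and 4.74 CPM, and neither passed the filter between classes. The B cell-like sums held only 140756, 165502 and 51888 UMIs, so these levels rest on few transcripts. The next classes were endothelial-like for Cacna2d4 (5.57 CPM) and neuron-like for Cacng8 (4.59 CPM), and neither gene was separated from them in every library.

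The release channels of the store differed in the classes where they were highest, and some classes shared them. In SGC-like nuclei 7 of 37 members were higher (24.7% of all genes) and 15 lower (15.1%). Itpr3, an IP3 receptor, was shared by glia, with 257, 264 and 263 CPM in MSC-like, 201, 190 and 203 CPM in SGC-like and 13.5, 12.7 and 10.3 CPM in neuron-like nuclei (log2 fold changes 2.16 ± 0.13, 1.90 ± 0.12 and -2.68 ± 0.16). Itpr2 was high in B cell-like (469, 598 and 520 CPM) and fibroblast-like nuclei (334, 456 and 495 CPM) and low in neuron-like nuclei (17.7, 21.3 and 15 CPM). Itpr1 led in B cell-like nuclei at 902, 1293 and 694 CPM, followed by endothelial-like nuclei at 467, 413 and 397 CPM, with 80.6, 93.5 and 91.3 CPM in neuron-like nuclei. Ryr2 and Ryr3, ryanodine receptors of heart and brain, went the other way. Ryr2 had 288, 335 and 259 CPM in neuron-like and 21.8, 24.5 and 17.6 CPM in SGC-like nuclei (4.22 ± 0.16 in neuron-like nuclei, adjusted p = 2.4e-18), and Ryr3 had 191, 184 and 171 CPM in neuron-like nuclei (3.20 ± 0.14, adjusted p = 6.3e-17). Ryr1, the muscle form, had 83.1 CPM in adult and 1.44 and 1.79 CPM in aged myeloid-like nuclei, the adult value resting on 55 nuclei.

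Of the store sensors, Stim1 was called in none of the tested classes and Stim2 was lower in neuron-like nuclei. Stim1 lay between 103 and 369 CPM in all libraries of the 8 tested classes, with log2 fold changes against the mean of the others from -0.28 to 0.18). Stim2 was lower in neuron-like nuclei (54.1, 71.9 and 66.2 CPM, log2 fold change -1.13 ± 0.15, adjusted p = 2.67e-07) than in SGC-like nuclei (169, 229 and 235 CPM). Of the Orai channels, Orai1 was highest by its mean in endothelial-like nuclei (35.6, 65.8 and 42.6 CPM), which overlapped myeloid-like nuclei (mean 44.0 CPM). Orai2 was highest, of the classes tested, in B cell-like nuclei (142, 66.5 and 116 CPM). Orai3 was too low to be tested across classes, at 3.84 to 4.48 CPM in neuron-like nuclei.

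Pumps and exchangers also divided by class. Atp2a2, the common SERCA pump, was near even, at 144, 165 and 148 CPM in neuron-like nuclei (log2 fold change 0.34 ± 0.13, adjusted p = 0.0283). Atp2a3, the SERCA form of blood cells, had 242, 393 and 270 CPM in B cell-like nuclei and 2.35, 1.88 and 3.01 CPM in neuron-like nuclei (5.83 ± 0.34 in B cell-like nuclei, adjusted p = 1.3e-13). Its next tested class, myeloid-like nuclei, had a mean of 13.4 CPM. Whether Atp2a3 would have passed the filter without its B cell-like sums was not tested, so its p-value is a description. Of the plasma membrane pumps, Atp2b2 (chr6:113743831-114042613, minus strand, GRCm38) and Atp2b3 were neuronal, with 210, 176 and 184 CPM and 43.7, 46.7 and 49.4 CPM in neuron-like nuclei. Atp2b4 had 212, 192 and 185 CPM in fibroblast-like and 198, 184 and 183 CPM in endothelial-like nuclei, above 123, 114 and 112 CPM in neuron-like nuclei. Atp2b1 was found in every class at 171 CPM or more. Of the tested classes its mean was highest in B cell-like nuclei (952 CPM, log2 fold change 1.11 ± 0.16, edgeR adjusted p = 6.28e-06). Myeloid-like nuclei came next (887 CPM) and were not separated from them in every library, and SGC-like nuclei were lowest (192 CPM). The Golgi pump Atp2c1 was at 137, 170 and 180 CPM in neuron-like and 224, 164 and 170 CPM in myeloid-like nuclei. The exchanger Slc8a1 (chr17:81373105-81738377, minus strand, GRCm38), best known from heart muscle, was a myeloid-like gene. It had 1653, 2080 and 1824 CPM there, and the next tested class by its mean, neuron-like nuclei, had 106, 88.1 and 135 CPM (5.53 ± 0.20, adjusted p = 2.94e-18). Slc8a3 was neuronal (77.1, 111 and 96.5 CPM), and Slc8a2 was too low to be tested, at 9.55, 7.00 and 11.4 CPM in SGC-like and 4.21, 4.80 and 6.06 CPM in neuron-like nuclei.

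For the remaining classes, the members called higher numbered 7 of 37 in B cell-like (11.3% of all genes), 9 in myeloid-like (22.0%), 10 in fibroblast-like (21.9%), 6 in endothelial-like (15.1%), 2 in MSC-like (21.5%) and 9 in NMSC-like nuclei (21.5%). Those called lower numbered 4 (13.8%), 16 (22.6%), 8 (14.9%), 4 (9.26%), 9 (15.3%) and 8 (8.12%) in the same order. In the NMSC-like class the neuronal check genes summed to 1141 to 1906 CPM, the highest outside neuron-like nuclei, and neuronal members such as Atp2b3 and Cacnb3 were among those called higher. With free RNA subtracted, 6 members were called higher and 6 lower in this class, Atp2b3 among the higher ones (adjusted p = 0.0253), and Cacnb3 did not pass (adjusted p = 0.302).

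Within the neuron-like nuclei, nearly every member differed between subtypes of sensory neuron, and several were close to absent from some of them. The 6 subtypes set by markers were NP (Mrgprd non-peptidergic nociceptors), SST (itch neurons), PEP (peptidergic nociceptors), TRPM8 (cold-sensing), TH (C-fibre low-threshold mechanoreceptors) and NF (large neurons rich in neurofilament). They held 832, 87, 1174, 198, 520 and 1727 nuclei over the 3 libraries. Each subtype was tested against the mean of the other 5, and 43 members passed the filter. All but Cacna1g differed in 1 or more subtypes (74% of all 16294 genes did), and 29 were over 2-fold higher in at least 1 (34.8% of all genes). The counts called higher were 21 in NF-like (27.7% of all 16294 genes), 19 in PEP-like (20%), 18 in TRPM8-like (13.5%), 14 in TH-like (18.5%), 10 in SST-like (12.1%) and 8 in NP-like nuclei (18.3%). The counts called lower were 12 (19.2%), 11 (11.3%), 4 (11.1%), 11 (14.9%), 15 (13.5%) and 19 (14.6%) in the same order.

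**Figure D2:**
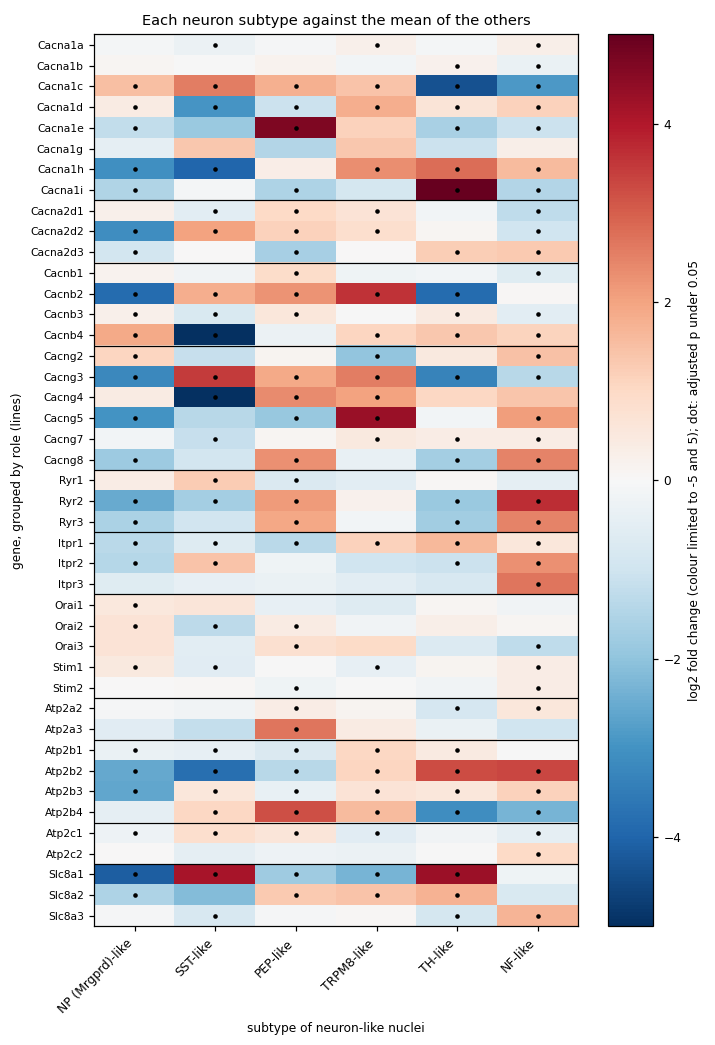
Log2 fold change of each tested gene in each neuron subtype against the mean of the other subtypes, with genes in rows grouped by role, red for higher and blue for lower (colour limited to -5 and 5), and a dot where the adjusted p was under 0.05. The L-type pore Cacna1c is red in 4 subtypes and blue in TH-like and NF-like nuclei, and the PMCA pump Atp2b2 shows nearly the reverse.

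The L-type pore Cacna1c divided the subtypes into 2 sets. It was at 3932, 4086 and 4061 CPM in SST-like, 2585, 2367 and 2745 CPM in PEP-like, 2238, 1921 and 1988 CPM in TRPM8-like and 1920, 1926 and 2027 CPM in NP-like nuclei. In NF-like nuclei it was at 151, 125 and 205 CPM and in TH-like nuclei at 101, 38.0 and 53.1 CPM. Every library of the first 4 subtypes lay above every library of the other 2, and the mean in SST-like nuclei (4026 ± 82.7 CPM, SD, n = 3) was above every sum of the other subtypes. The log2 fold changes ran from 2.55 ± 0.13 in SST-like to -4.37 ± 0.21 in TH-like nuclei (adjusted p = 1.27e-11 and 3.63e-12). Cacna1d, the other L-type pore, was highest in TRPM8-like nuclei at 254, 289 and 351 CPM (1.80 ± 0.14, adjusted p = 5.03e-09) and lowest in SST-like nuclei at 27.3, 25.2 and 7.77 CPM.

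The R-type pore Cacna1e and the T-type pore Cacna1i were each held mainly by a single subtype, while the T-type pore Cacna1h was spread more widely. Cacna1e had 164, 237 and 264 CPM in PEP-like nuclei and between 2.29 and 51.9 CPM in the libraries of the other subtypes (4.67 ± 0.24 in PEP-like nuclei, adjusted p = 1.21e-11). Cacna1i had 77.5, 118 and 138 CPM in TH-like nuclei and at most 6.88 CPM in any library of the others (5.49 ± 0.19, adjusted p = 3.61e-14). Both patterns left no overlap between the leading subtype and the rest. Cacna1h was high in TH-like (97.5, 132 and 159 CPM), TRPM8-like (82.6, 95.9 and 155 CPM) and NF-like nuclei (40.2, 45.1 and 132 CPM) and near 0 in NP-like (4.17, 4.96 and 3.44 CPM) and SST-like nuclei (6.82, 2.29 and 0 CPM). In NF-like nuclei its level in aged replicate 2 was well above the other 2 libraries. The presynaptic pores Cacna1a and Cacna1b differed little between subtypes, with log2 fold changes from -0.28 to 0.28 and from -0.32 to 0.20. The small difference of Cacna1a in TRPM8-like nuclei (0.25 ± 0.09, adjusted p = 0.0462) did not pass in 7 of 9 alternatives.

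**Figure D3:**
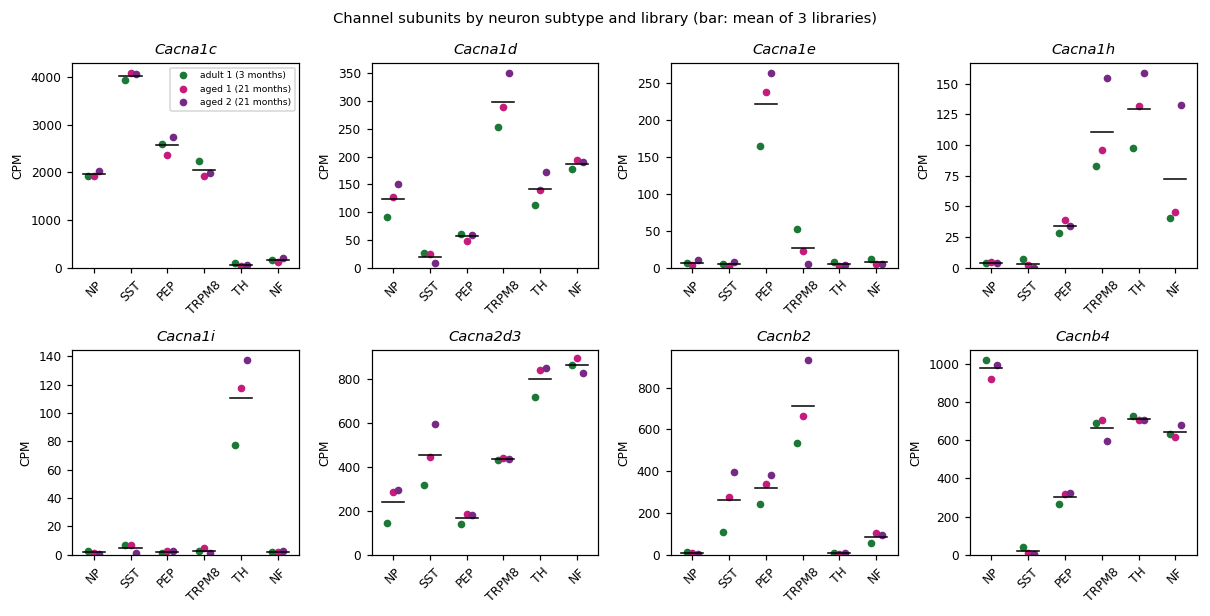
Level (CPM, vertical axis from 0) of 8 channel subunits in the 6 neuron subtypes, with 1 point for each library (green adult, pink and purple aged) and a bar at the mean of 3 libraries. Cacna1e is high in PEP-like and Cacna1i in TH-like nuclei, and Cacnb4 is near 0 in SST-like nuclei in each library.

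Accessory subunits had subtype patterns of their own. Cacna2d1 was highest by its mean in PEP-like nuclei (1884, 1975 and 1832 CPM), which overlapped TRPM8-like nuclei (mean 1594 CPM). It was lowest in NF-like nuclei (356, 542 and 583 CPM), with a log2 fold change of -1.25 ± 0.12. Cacna2d3 was the other way round, with 863, 891 and 824 CPM in NF-like, 717, 838 and 846 CPM in TH-like and 140, 185 and 180 CPM in PEP-like nuclei. Cacna2d2 was highest in SST-like nuclei (438, 459 and 494 CPM) and low in NP-like nuclei (16.0, 18.8 and 32.1 CPM). Cacnb2 was at 536, 663 and 932 CPM in TRPM8-like nuclei and at 11.3 CPM or less in every library of NP-like and TH-like nuclei (3.61 ± 0.18 in TRPM8-like nuclei, adjusted p = 1.55e-11). Cacnb4 was highest in NP-like nuclei at 1021, 923 and 994 CPM, and it was at 39.2, 11.5 and 6.21 CPM in SST-like nuclei, the lowest of any subtype (-5.12 ± 0.25, adjusted p = 7.03e-12). Cacnb1 and Cacnb3 were both highest in PEP-like nuclei (42.3, 55.8 and 55.2 CPM, and 143, 161 and 140 CPM), with log2 fold changes of 0.92 ± 0.11 and 0.56 ± 0.08. Of the gamma subunits, Cacng5 was at 50.1, 67.9 and 77.3 CPM in TRPM8-like and 13.9, 22.7 and 14.3 CPM in NF-like nuclei (4.31 ± 0.21, adjusted p = 7.47e-12, in TRPM8-like nuclei). By their means, Cacng3 was highest in SST-like (32.4, 34.4 and 77.7 CPM) and Cacng2 in NF-like nuclei (44.8, 53.0 and 43.0 CPM). Cacng7 was spread more evenly, with a maximum of 54.9, 56.0 and 73.5 CPM in TRPM8-like nuclei, and Cacng8 reached 11.2, 6.41 and 5.89 CPM in NF-like nuclei.

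Of the 6 release channels of the store, Ryr2, Ryr3, Itpr2 and Itpr3 were highest by their means in NF-like nuclei, Itpr1 in TH-like and Ryr1 in SST-like nuclei. Ryr2 had 585, 689 and 606 CPM there and 237, 286 and 310 CPM in PEP-like nuclei, against 12.9 to 37.5 CPM in the libraries of NP-like, SST-like and TH-like nuclei (3.68 ± 0.13 in NF-like nuclei, adjusted p = 5.39e-14). Ryr3 followed the same order at its top, with 239, 295 and 324 CPM in NF-like and 268, 209 and 230 CPM in PEP-like nuclei, and these 2 subtypes overlapped. Itpr2 and Itpr3, low in neurons as a whole, were highest in NF-like nuclei (35.9, 44.6 and 38.8 CPM and 25.4, 29.6 and 30.4 CPM). The log2 fold changes of Itpr2 and Itpr3 were 2.27 ± 0.18 and 2.66 ± 0.21 (adjusted p = 4.3e-09 and 2.98e-09). Both genes are high in glia or fibroblast-like nuclei, and how much of the NF-like level came from RNA of wrapping cells was not tested. Itpr1, in contrast, was highest in TH-like nuclei at 171, 248 and 234 CPM (1.61 ± 0.08, adjusted p = 2.9e-12). Ryr1 was low in every subtype, at 13.6, 4.59 and 7.77 CPM in SST-like nuclei, on 8, 2 and 5 UMIs (1.27 ± 0.39, adjusted p = 0.0195). Stim1 and Stim2 differed little, at most 0.58 on the log2 scale in either direction, and no Orai gene went above 30.8 CPM in a library. Orai2, the Orai gene called higher in neuron-like nuclei, was highest by its mean in NP-like nuclei at 28.1, 30.8 and 22.0 CPM (0.67 ± 0.12, adjusted p = 0.000176). Orai1 was highest in SST-like nuclei (13.6, 18.3 and 10.9 CPM) and Orai3 in TRPM8-like nuclei (7.24, 7.99 and 4.99 CPM), neither of which passed the threshold there.

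Pumps and exchangers each had members that differed strongly between subtypes. Atp2b2, a fast PMCA pump, was at 418, 376 and 482 CPM in NF-like and 364, 403 and 410 CPM in TH-like nuclei, which overlap, and at 3.11 to 32.6 CPM in every library of PEP-like, NP-like and SST-like nuclei. The log2 fold changes were 3.34 ± 0.18 and 3.25 ± 0.18 in NF-like and TH-like nuclei (adjusted p = 1.06e-11 and 3.1e-11). Atp2b4 was instead low in NF-like and TH-like nuclei, at most 15.1 CPM, and highest in PEP-like nuclei at 404, 351 and 329 CPM (3.23 ± 0.17, adjusted p = 1.43e-11). Atp2b1 was found in every subtype and was highest in TRPM8-like nuclei at 1179, 1119 and 990 CPM, and Atp2b3 in NF-like nuclei at 69.7, 79.1 and 85.5 CPM with 5.98, 10.1 and 11.5 CPM in NP-like nuclei. Slc8a1 was at 377, 711 and 783 CPM in SST-like and 565, 594 and 695 CPM in TH-like nuclei and at most 59.0 CPM in any library of the other 4 (4.12 ± 0.24 and 4.30 ± 0.21, adjusted p = 8.51e-11 and 4.32e-12). Slc8a3 was highest in NF-like nuclei at 145, 183 and 177 CPM (1.71 ± 0.14, adjusted p = 4.58e-09) and Slc8a2, of low level, had its highest mean in TH-like nuclei at 5.31, 11.3 and 17.7 CPM, which overlapped 9.05, 6.99 and 12.5 CPM in TRPM8-like nuclei. The call of Slc8a2 in TH-like nuclei (1.76 ± 0.36, adjusted p = 0.000697) was lost without aged replicate 2 (1.21, adjusted p = 0.0691). The SERCA pump Atp2a2 was lower in TH-like nuclei (73.5, 83.2 and 72.3 CPM, -0.84 in log2) than in NF-like nuclei (163, 191 and 176 CPM). Atp2a3 was called higher only in PEP-like nuclei, at 5.73, 4.75 and 6.05 CPM. By their means, the Golgi pumps Atp2c1 and Atp2c2 were highest in SST-like (205, 310 and 306 CPM) and NF-like nuclei (10.5, 10.0 and 5.89 CPM).

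**Figure D4:**
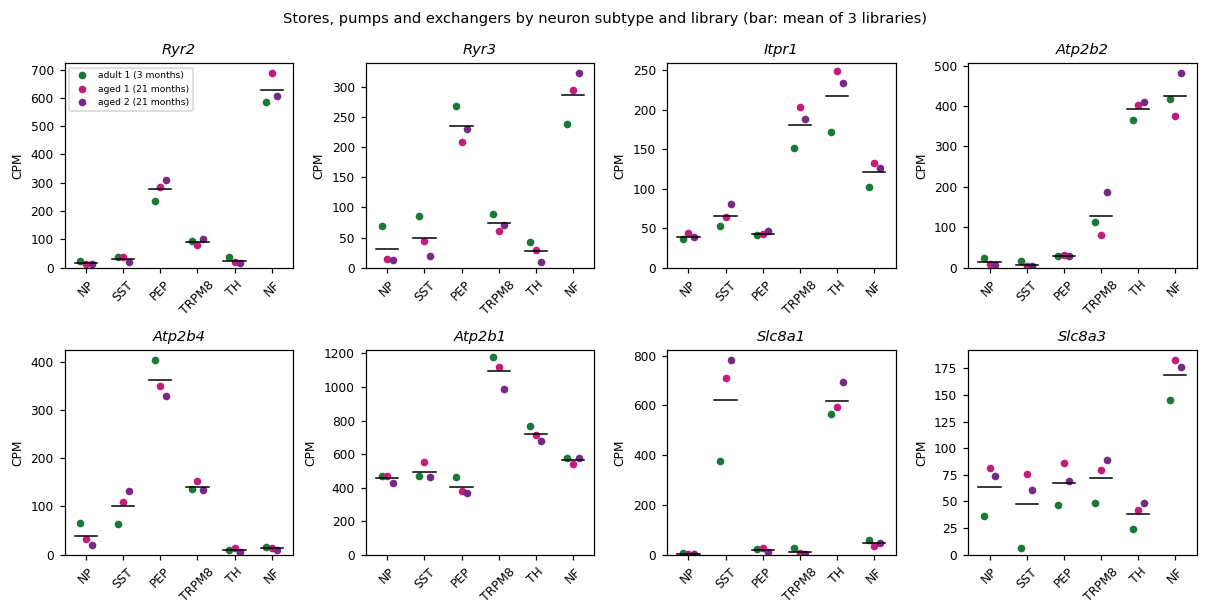
Level (CPM, vertical axis from 0) of 8 store, pump and exchanger genes in the 6 neuron subtypes, with 1 point for each library (green adult, pink and purple aged) and a bar at the mean of 3 libraries. Ryr2 peaks in NF-like nuclei, Atp2b2 in NF-like and TH-like nuclei, Atp2b4 in PEP-like nuclei and Slc8a1 in SST-like and TH-like nuclei.

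Age was compared class by class, which asks how aging alters the transcripts of each cell type. With 1 adult and 2 aged libraries the fit leaves 1 residual degree of freedom, and edgeR borrows the rest of its estimate of the spread from other genes (prior degrees of freedom of 37.9 in neuron-like and 3.22 in SGC-like sums, and infinite in MSC-like and fibroblast-like sums, where each gene takes the common trend). The adjusted p-values for age thus rest largely on that borrowed estimate.

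In neuron-like nuclei the store sensor Stim1 was lower in aged libraries and the beta subunit Cacnb2 higher. Of 47 members tested, 1 was higher (3.78% of all 20936 genes) and 5 were lower (8.52%), and the median log2 fold change of the 47 was 0.02, beside 0.00 over all genes. Stim1 (chr7:102267806-102437319, plus strand, GRCm38) stood at 227 CPM in the adult and 150 and 154 CPM in the aged libraries (log2 fold change -0.68 ± 0.16, adjusted p = 0.00315). It passed in all alternatives that have a test, with adjusted p from 0.000663 to 0.0179 (edgeR and DESeq2). By subtype, Stim1 was lower in both aged libraries in NF-like (264, 151 and 162 CPM), NP-like (241, 179 and 176 CPM), PEP-like (215, 136 and 137 CPM) and SST-like nuclei (133, 98.6 and 123 CPM), while in TH-like (166, 167 and 151 CPM) and TRPM8-like nuclei (134, 142 and 103 CPM) the adult value lay between the aged ones. Stim1 in the RNA free of nuclei moved alike, with 272 CPM in the adult and 178 and 161 CPM in the aged libraries, and the part of free RNA in the change was not tested.

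Cacnb2 rose from 102 CPM to 146 and 169 CPM (0.53 ± 0.17, adjusted p = 0.037), a call lost with more than 2000 genes per nucleus (0.52, adjusted p = 0.0677) and with clusters in place of marker classes (0.40, adjusted p = 0.142). Adult values were the lowest in each subtype that held it, namely TRPM8-like, PEP-like, SST-like and NF-like nuclei. The other 4 members called were of low level. Cacng8, a TARP, was at 6.35, 3.93 and 3.50 CPM (-0.87 ± 0.26, adjusted p = 0.0233), and the alpha2delta subunit Cacna2d4 at 2.55, 1.01 and 1.42 CPM (-1.17 ± 0.37, adjusted p = 0.031). Free RNA held Cacna2d4 at 9.84, 1.84 and 2.75 CPM and Cacng8 at 4.19, 2.92 and 2.36 CPM, lower in both aged libraries as well. The Golgi pump Atp2c2 was at 8.60, 6.68 and 3.66 CPM (-0.83 ± 0.26, adjusted p = 0.0315), and its log2 fold change was -1.31 without aged replicate 1 and -0.49 without aged replicate 2. Its call was lost without barcodes of little Malat1 (adjusted p = 0.0568), and that of Cacna2d4 with more than 2000 genes per nucleus (adjusted p = 0.0675). Cacng4, the gene of SGC-like nuclei, was at 5.89, 3.75 and 3.62 CPM (-0.77 ± 0.27, adjusted p = 0.0491) beside 27.1, 12.6 and 10.0 CPM in free RNA, and with clusters it was at -0.35 (adjusted p = 0.352). Its call was also lost with more than 2000 genes (adjusted p = 0.074) and without barcodes of little Malat1 (adjusted p = 0.0616). Under DESeq2 only Stim1 was called (adjusted p = 0.0179), and the other 5 had adjusted p of 0.158 to 0.416. When the subtypes were thinned to equal shares of UMIs, Stim1, Cacnb2 and Atp2c2 were still called and Cacna2d4, Cacng4 and Cacng8 were not (adjusted p = 0.055 to 0.0939), with log2 fold changes of -1.06, -0.83 and -0.79 that stayed close to those reported. At equal shares 6 of 45 members were called, so others that the reported fit did not call passed there.

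In SGC-like nuclei no member passed (0 of 38, where 4 of 14295 genes passed, 0.028%), and 8 members had an unadjusted p under 0.05, as did 2418 of the 14295 genes. The 3 members of smallest p were higher in both aged libraries. Atp2b2 was at 37.6, 99.4 and 103 CPM (1.28 ± 0.14, adjusted p = 0.0875), Cacnb4 at 66.2, 125 and 125 CPM (0.77 ± 0.13, adjusted p = 0.145) and Itpr2 at 30.2, 61.5 and 64.8 CPM (0.92 ± 0.16, adjusted p = 0.15). In each of them the aged libraries lay closer to each other than to the adult one. With free RNA subtracted the 3 values were 2.67, 2.15 and 1.08, and all 3 passed (adjusted p = 1.49e-07, 5.99e-07 and 0.00244). By edgeR all 3 also passed without the filter, with more than 2000 genes, without barcodes of little Malat1 and with clusters (adjusted p of 0.0161 or less). None of them passed with DESeq2 size factors (adjusted p of 0.27 or more). DESeq2 called Atp2b2 (adjusted p = 0.000805) and no other member, and the other settings called 0 to 11 members with 0 to 2219 genes in all, so the count of calls in this class depends on the setting. The neuronal check genes in SGC-like nuclei were at 631, 723 and 589 CPM, the adult value lying between the aged ones. The median depth was lower in the adult library, at 3213 UMIs per nucleus, than in the aged ones, at 7155 and 7926. The part of depth in these differences was not tested.

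In MSC-like nuclei no member of 27 passed either (6.86% of all 11351 genes did, 2.59% higher and 4.27% lower), and 8 had an unadjusted p under 0.05, as did 1913 of the 11351 genes. The 3 of smallest p were lower in both aged libraries. Stim1 was at 202, 135 and 154 CPM (-0.62 ± 0.22, adjusted p = 0.0648), Cacna1a at 283, 219 and 215 CPM (-0.48 ± 0.20, adjusted p = 0.142) and Atp2b4 at 25.5, 9.78 and 15.1 CPM (-1.27 ± 0.54, adjusted p = 0.164). DESeq2 called none, and with clusters in place of marker classes 6 members were called. The neuronal check genes went from 986 CPM in the adult to 597 and 602 CPM in the aged libraries, and their part was not tested.

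In fibroblast-like nuclei 3 of 36 members rose (5.3% of all 12537 genes) and 4 fell (6.91%) by edgeR, and none of the 7 was called by DESeq2 (adjusted p of 0.184 or more for the 6 that had one). Slc8a3, a sodium-calcium exchanger, went from 16.4 CPM to 36.5 and 59.9 CPM (1.46 ± 0.33, adjusted p = 0.000251), Cacna2d1 from 206 CPM to 292 and 354 CPM (0.59 ± 0.18, adjusted p = 0.0131) and Itpr2 from 334 CPM to 456 and 495 CPM (0.46 ± 0.16, adjusted p = 0.0473). The call of Itpr2 was lost in all 7 other settings that tested it, with adjusted p from 0.0508 with DESeq2 size factors to 0.705 with DESeq2's test, and its value was 0.28 with free RNA subtracted. The 4 lower members were ones that are far higher in neuron-like nuclei. Cacnb4 went from 138 CPM to 73.0 and 57.4 CPM (-1.11 ± 0.23, adjusted p = 2.71e-05) and Cacna2d3 from 164 CPM to 115 and 77.0 CPM (-0.79 ± 0.21, adjusted p = 0.00275). Ryr3 went from 41.0 CPM to 20.7 and 19.6 CPM (-1.07 ± 0.33, adjusted p = 0.0129), and Atp2b2 from 28.9 CPM to 5.81 and 17.1 CPM (-1.49 ± 0.41, adjusted p = 0.00375, -0.81 without aged replicate 1 and -2.33 without aged replicate 2). The neuronal check genes moved with them, from 783 CPM in the adult to 475 and 423 CPM in the aged libraries. With free RNA subtracted, Cacnb4 and Cacna2d3 were still lower (-1.10 and -0.83) and Ryr3 was not (-0.06, adjusted p = 0.987), while Atp2b2 had no value under that setting. Slc8a3 and Cacna2d1 were still higher under it (2.10 and 0.95). With clusters in place of marker classes only Slc8a3 of the 7 was called (1.75, adjusted p = 0.0191), and Atp2b2 was at -0.04. Among nuclei with more than 2000 genes Cacnb4 was at -0.50 (adjusted p = 0.262).

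**Figure D5:**
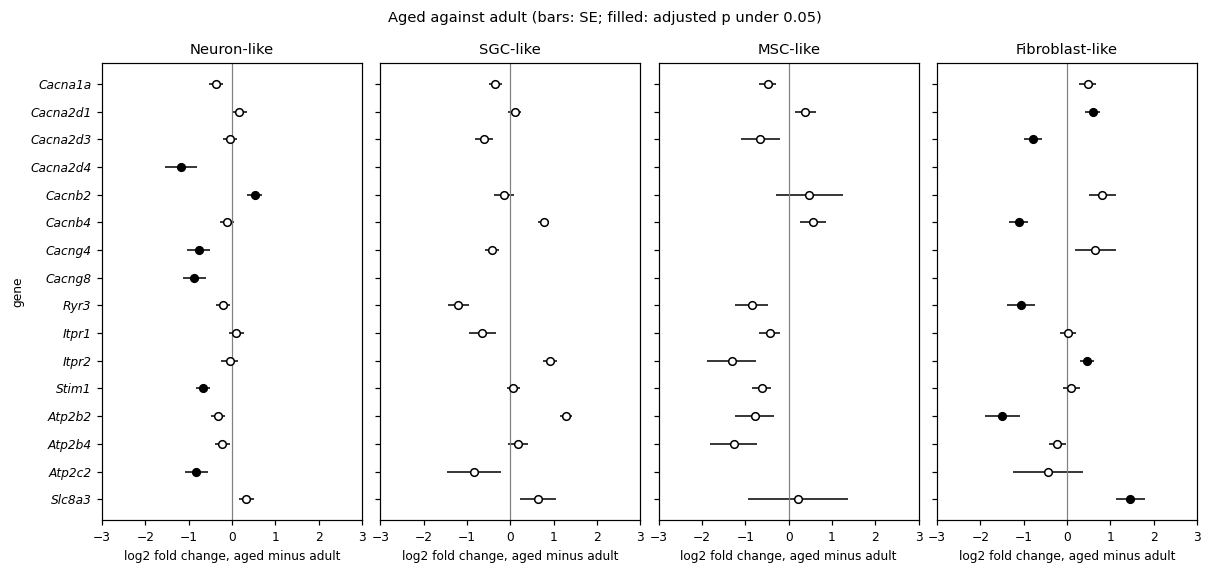
Log2 fold change, aged minus adult (horizontal axis), with its SE for the genes named for age, in neuron-like, SGC-like, MSC-like and fibroblast-like nuclei, filled where the edgeR adjusted p was under 0.05 and missing where a gene did not pass the filter. Stim1 is below 0 in neuron-like and MSC-like nuclei and near 0 in the others, and Atp2b2 and Cacnb4 lie to the right in SGC-like and to the left in fibroblast-like nuclei.

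The difference of the age effect between neuron-like and SGC-like nuclei of the same libraries was tested as an interaction, and 7 of 48 members passed (3.49% of all 20664 genes), 3 with a larger value in neuron-like nuclei (1.06%) and 4 with a smaller one (2.42%). The edgeR fit of the interaction had 1 residual degree of freedom and infinite prior degrees of freedom, so its p-values rest on the common trend. Atp2b2 had the smallest adjusted p, at -0.32 ± 0.16 in neuron-like and 1.28 ± 0.14 in SGC-like nuclei (difference -1.63 ± 0.20, adjusted p = 4.79e-13). Its change in SGC-like nuclei alone was not called in the reported edgeR fit (adjusted p = 0.0875) or with DESeq2 size factors (adjusted p = 0.27). By edgeR it was called without the filter, with more than 2000 genes, without barcodes of little Malat1, with clusters and with free RNA subtracted (adjusted p of 0.00018 or less). Atp2b2 was the only member whose difference DESeq2 also called (adjusted p = 0.00123). Cacnb4 (-0.92 ± 0.19, adjusted p = 0.000158) and Itpr2 (-0.98 ± 0.23, adjusted p = 0.00126) shared that direction, as did Stim1 (-0.77 ± 0.18, adjusted p = 0.0019), whose change in SGC-like nuclei was 0.07 ± 0.15. Ryr3 went the other way (0.98 ± 0.25, adjusted p = 0.00572), from 29.4 CPM to 12.2 and 17.0 CPM in SGC-like nuclei, as did Itpr1 (0.74 ± 0.21, adjusted p = 0.0168, 1.28 without aged replicate 1 and 0.44 without aged replicate 2). Atp2a1, the SERCA pump of fast muscle, was called on few transcripts. It had 38 UMIs in adult SGC-like nuclei, of which 22 lay in 1 nucleus, and 0 UMIs in aged ones, which held far fewer nuclei. In free RNA it was at 5.18, 1.00 and 1.05 CPM. With free RNA subtracted, a step taken for SGC-like and not for neuron-like nuclei, Atp2b2 and Cacnb4 passed at -2.91 and -2.19. The other 5 did not pass (adjusted p = 0.06 to 0.542), though their values were close to those reported or farther from 0, at -1.06 for Itpr2, -0.81 for Stim1, 0.93 for Itpr1, 1.22 for Ryr3 and 9.40 for Atp2a1. With clusters in place of marker classes Ryr3 was at 0.36 (adjusted p = 0.554) and Atp2a1 did not pass (adjusted p = 0.844).

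The partners of these genes were described from a list of 59 calcium-binding, buffering and signalling genes. Of the 49 partners that passed the filter between classes, 31 were higher (34.0% of all genes were) and 8 lower (24.7%) in neuron-like nuclei, with a median log2 fold change of 0.72, beside 0.07 over all genes. With age, 3 of 56 rose (3.78% of all genes) and 6 fell (8.52%) in neuron-like nuclei, so the shares lay near those of all genes. The largest falls were those of Calb2, the buffer calretinin (2.62, 0.80 and 0.49 CPM, -2.10 ± 0.40, adjusted p = 0.000262), and S100b, a calcium-binding protein abundant in glia (312, 190 and 106 CPM, -1.17 ± 0.19, adjusted p = 2.21e-05). Both were also lower in the free RNA of the aged libraries, Calb2 going from 12.3 CPM to 3.76 and 3.01 CPM and S100b from 1005 CPM to 737 and 611 CPM. S100b was at -1.63 without aged replicate 1 and -0.84 without aged replicate 2. Glial markers moved alike in neuron-like nuclei, where the 7 SGC markers summed to 131, 113 and 80.5 CPM and the 11 MSC markers to 221, 135 and 102 CPM, and their part in the fall of S100b was not tested. The largest rises were those of Ppp3r1, the regulatory subunit of calcineurin (8.71, 15.7 and 17.0 CPM, 0.81 ± 0.21, adjusted p = 0.00885), and Jph1, which ties the store to the plasma membrane (35.6, 52.7 and 63.2 CPM, 0.60 ± 0.19, adjusted p = 0.0262). Jph1 was at 20.3, 17.5 and 181 CPM in free RNA. In SGC-like nuclei 0 of 50 partners passed. In MSC-like nuclei 0 of 46 rose (2.59% of all genes) and 5 fell (4.27%), led by the exchanger Slc24a3 (-1.70 ± 0.42, adjusted p = 0.00213) and the buffer Pvalb (-1.49 ± 0.44, adjusted p = 0.0154). In free RNA Slc24a3 went from 140 CPM to 83.4 and 79.9 CPM and Pvalb from 142 CPM to 67.2 and 57.6 CPM. In fibroblast-like nuclei, where 5.3% of all genes rose and 6.91% fell, 2 of 48 partners rose, Casq2 and Micu2 (1.21 ± 0.37 and 0.77 ± 0.24, adjusted p = 0.0117 and 0.012), and 11 fell, led by Pvalb and Jph4 (-1.85 ± 0.45 and -1.54 ± 0.49, adjusted p = 0.000689 and 0.0179), 2 genes of neurons.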

How the data were processed

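Single-nucleus RNA was measured in 3 PIP-seq libraries. The authors processed the reads with Pipseeker v3.3.0, per the methods, and the submitters' processing notes name the build mm10; the annotation is not given in the sources used here. The deposited values are raw counts of UMIs per gene and barcode, without normalization. Here barcodes with more than 1000 genes were kept, slightly fewer than the methods state, with median depths of 3269, 4318 and 4900 UMIs in the adult and the 2 aged libraries.

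Nuclei were given a class by marker counts. The number of rounds of this step and the rule for naming clusters were set after the classes had been seen, and the gene members and lists were chosen with earlier results of these data known. Barcodes with a mix of classes were set aside, and no doublet caller was run. UMIs were summed per class or subtype and library, and sums with 20 or more nuclei in every library were tested with edgeR 4.0.16 (quasi-likelihood test, TMM, filterByExpr) in R 4.3.3, with Benjamini-Hochberg adjustment over all genes of a fit and a threshold of 0.05. Library was a block between classes, between subtypes and in the interaction. Every count of calls is over all genes, and none was adjusted over a list alone. The script was tested on simulated counts of the same design, where, for age in neuron-like sums (20936 genes), 47% of genes changed by 1 and 92% of those changed by 2 on the log2 scale were recovered. The shares were 34% and 91% for age in SGC-like sums (14295 genes). They were 15% and 66% for a class against the others (13259 genes), and 85% and 96% for a subtype against the others (16294 genes). False calls numbered 10 for age in neuron-like sums, 9 for age in SGC-like sums, 0 for a class and 12 for a subtype. Whether these shares hold at the spread of the measured counts was not tested. Members were named by their highest class or subtype, and for age when past the threshold, with the 3 of smallest p where none passed. Members of lower counts named outside that rule were chosen after their values were seen.

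Alternatives were DESeq2 1.42.0 as test and as size factors, no filter, more than 2000 genes per nucleus, leaving out barcodes of little Malat1, clusters (Seurat 5.3.0), subtraction of free RNA (barcodes of at most 100 UMIs), equal subtype shares, a stricter subtype margin and leaving out each library. The subtraction was scaled as if all UMIs of the neuronal check genes in a class other than neuron-like were free RNA. Positions come from GENCODE M21 (GRCm38), in which 99.6% of identifiers were found.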

Additional observations from a re-analysis of the deposited data

Results flagged for a closer look

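The age effect (aged minus adult, log2 scale) differed between neuron-like and SGC-like nuclei for 7 members, by edgeR's test of the interaction with adjusted p under 0.05, and these are given as values. Atp2b2 (-1.63), Itpr2 (-0.98), Cacnb4 (-0.92) and Stim1 (-0.77) had the smaller value in neuron-like nuclei. Itpr1 (0.74) and Ryr3 (0.98) had the larger value there. For Atp2a1 the fitted difference of 9.43 depends on the prior count, since aged SGC-like nuclei held 0 UMIs of it, and it is no bound. With 3 libraries no group had enough samples for a check of single samples that stand apart.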

How the results depend on the processing

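Between classes and between subtypes the counts of calls stayed within 1.5 times those reported, and single calls were lost and gained. Calls of a member higher in a class numbered 77 in the reported fit, and under alternatives from 38 with more than 2000 genes per nucleus to 87 without the filter. Fewer classes had enough nuclei with more than 2000 genes, and in those classes the reported fit had 55 calls. Leaving out a library gave 67 to 86. Subtype calls numbered 90, with 71 to 92 under alternatives and 77 to 84 without a library. Of the comparable 55, 36 were called again with more than 2000 genes. Of 684 repeats of 75 named class and subtype results, chosen as each member's highest class or subtype, 665 kept their direction and side of the threshold, 11 lost the call, 6 gained it and 2 changed sign. Both sign changes were those of Stim1 in B cell-like nuclei, never called, at -0.14 as reported, 0.0036 with clusters and from -0.72 to 0.24 without a library.

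Age calls were not stable, and the cause was not tested. The prior degrees of freedom also differed between settings. In SGC-like sums they were 1.94 with DESeq2 size factors, 3.22 as reported, 40.5 without barcodes of little Malat1 and infinite with clusters. In MSC-like sums they were 3.37 without the filter and infinite as reported. In neuron-like nuclei 6 members became 1 with DESeq2 (679 genes in all, against 2574), 3 with more than 2000 genes (1694), 4 without barcodes of little Malat1 (2216) and 4 with clusters (1730). At equal subtype shares 6 members were called (2289 genes), of which only Stim1, Cacnb2 and Atp2c2 were among those reported. In SGC-like nuclei 0 members became 5 without the filter (977 genes, against 4), 1 with DESeq2 (225), 5 with more than 2000 genes (1145), 6 without barcodes of little Malat1 (1443), 11 with clusters (2219) and 4 with free RNA subtracted (1147), and with DESeq2 size factors no gene passed (2230 had an unadjusted p under 0.05). In MSC-like nuclei 0 members became 1 with more than 2000 genes (520 genes, against 779), 6 with clusters (1592) and 4 with free RNA subtracted (436), while no filter left 2 genes and DESeq2 57. In fibroblast-like nuclei 7 members became 0 with DESeq2 (207 genes, against 1531, and 4 members at an unadjusted p under 0.05) and 1 with clusters (256). The interaction went from 7 members to 1 with DESeq2 (76 genes, against 721) and 4 with free RNA subtracted. Of those 4, only Atp2b2 and Cacnb4 were among the 7. Without 1 aged library the age comparison is 1 library against 1, so it gives values and no test, and the adult library cannot be left out.

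No paired analysis was made because the labels name no pairing of adult with aged libraries. The study gives the libraries as biological replicates, and how many animals entered each is not given in the labels. Depth limits the 9 members under 100 UMIs in a library, and sums of under 100 nuclei, such as B cell-like ones.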

Other observations

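Mural-like nuclei, the contractile cells of vessels, numbered 53, 15 and 4 and were too few to test. The L-type pore Cacna1c stood at 2907, 3266 and 2936 CPM in them, against 1240, 1267 and 1548 CPM in neuron-like nuclei, and the beta subunit Cacnb2 at 1013, 905 and 514 CPM, against 102, 146 and 169 CPM. Cacna2d1 was at 444, 748 and 808 CPM and the SERCA pump Atp2a2 at 296, 394 and 294 CPM in the same nuclei. In each library Cacna1c, Cacnb2 and Atp2a2 were higher in mural-like nuclei than in any tested class, and Cacna2d1 was higher in neuron-like nuclei.

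T cell-like nuclei (23, 31 and 12) held Stim1 at 424, 507 and 499 CPM and Itpr2 at 594, 867 and 798 CPM, in each library above the levels of every tested class. Stim1 takes part in the calcium entry that follows T cell receptor signalling, and Itpr2, an IP3 receptor, releases calcium from the store. These values rest on few nuclei, and the neuronal check genes in T cell-like nuclei were at 1188, 734 and 665 CPM.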
